A study of Mus musculus with 17 samples.

Results

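Chromatin accessibility of naive B cells (nB) was compared with that of plasma cells from bone marrow (BMPC) in mice with intact Dnmt3a and Dnmt3b (Dnmt3-sufficient). There were 3 ATAC-seq libraries of each, 6 of the 16 libraries in the deposited table and of the 17 that the labels list. Both groups carried Dnmt3afl/fl Dnmt3bfl/fl alleles on the strain background B6;129S4-Dnmt3atm3.1Enl Dnmt3btm5.1Enl/Mmnc, so that the parts of both genes that encode the catalytic domains were flanked by loxP sites but no Cre recombinase was present. The strain name is that of the labels, and the methods of the study give a different number for the Dnmt3a allele. The nB libraries were each made from sorted B220+ Fas- GL7- cells of the lymph nodes of 1 unimmunized male mouse. The BMPC libraries were each made from sorted CD138+ cells of the bone marrow of 1 female mouse, collected 30 days after subcutaneous immunization with phycoerythrin in complete Freund's adjuvant (PE-CFA). Mice were 8 to 12 weeks old when the experiments started, and each library used 3000 to 5000 cells. Sex, tissue and immunization differed between the groups together with the cell type and cannot be told apart from it. Dnmt3-sufficient germinal center B cells (GCB; B220+ Fas+ GL7+ PE+, from lymph nodes at the same day after immunization, 1 female and 1 male library, mice pooled) are given beside some results. The same holds for nB and BMPC of mice that also carried a Cre allele and lacked both Dnmt3 enzymes in B cells (KO, 2 libraries of each in the table).

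ATAC-seq marks open chromatin, because the transposase that attaches the sequencing adapters cuts DNA mainly where nucleosomes are absent. When a naive B cell becomes a plasma cell it gives up antigen presentation and B cell receptor signaling, builds a large secretory apparatus and exports antibody, and in the bone marrow it can persist for long times. Pax5, Ebf1, Bach2, Bcl6 and PU.1 are known as regulators of the B cell state, while Blimp-1 (encoded by Prdm1), IRF4 and XBP1 are known to establish and maintain the plasma cell state.

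Accessibility is given as RPPM, the reads in a region per 1e+06 reads in all regions of its library. A region is called more accessible (opened) or less accessible (closed) in BMPC where limma on log2(RPPM + 1) gave a Benjamini-Hochberg adjusted p of at most 0.01 over all 66177 regions and a log2 fold change of at least 1 in size. Each log2 fold change below is on this log2(RPPM + 1) scale, which understates the change of regions with few reads, and a number in parentheses after a region is its log2 fold change. Over the 338 regions that the rule for named genes picked, the SE of this change had a median of 0.22 and lay between 0.083 and 0.92. No called region among them had a limma adjusted p above 0.0053. The 3 nB libraries held 4104875, 5308068 and 5373170 reads in regions and the 3 BMPC libraries 7689136, 5480680 and 6422265. A count of 3 reads, taken as the floor, stood for 0.390 to 0.731 RPPM, for counting error only. Spearman correlations over all regions lay between 0.964 and 0.974 within a group and between 0.578 and 0.617 across the groups, as a description in which regions are not independent and libraries differ in depth. In sorted bulk cells, fewer cells with an open region and less signal per cell cannot be told apart.

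The central 200 bp of 10 regions are shown first, because they carry the largest changes, or large changes next to letters that differed in frequency between opened and closed regions. All are on the plus strand of mm9, from 5′ to 3′, in lower case, and capitals mark the letters CAGCTG (E2A E-box), CACCTG (second E2A E-box), GGAAGT (PU.1), GAAANNGAA (ISRE, bound by IRF proteins) or ATGCAAAT (octamer, bound by Oct proteins), searched on both strands. CAGCTG reads the same on both strands, CACCTG appears as CAGGTG and GGAAGT as ACTTCC where the letters lie on the minus strand. The PU.1 letters can share bases with the ISRE letters, each being counted on its own. A match describes the letters of these 200 bp and is not evidence that a factor was bound. The first 4 opened regions of the sequences below are the 4 largest rises of all regions under the limits given further on, and they lay near Mir148a, near and in Fam46c, and in an intron of Pitpnc1.
Mir148a, opened, chr6:51237855-51238054: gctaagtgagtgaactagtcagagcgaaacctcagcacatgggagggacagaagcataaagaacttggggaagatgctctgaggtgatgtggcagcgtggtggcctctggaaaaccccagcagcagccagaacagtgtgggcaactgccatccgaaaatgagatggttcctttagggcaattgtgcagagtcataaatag
Fam46c downstream, opened, chr3:100267634-100267833: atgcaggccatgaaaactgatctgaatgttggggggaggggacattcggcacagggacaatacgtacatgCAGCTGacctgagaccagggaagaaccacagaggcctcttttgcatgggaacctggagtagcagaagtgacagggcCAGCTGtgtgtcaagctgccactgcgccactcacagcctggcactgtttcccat
Pitpnc1 intron, opened, chr11:107160688-107160887: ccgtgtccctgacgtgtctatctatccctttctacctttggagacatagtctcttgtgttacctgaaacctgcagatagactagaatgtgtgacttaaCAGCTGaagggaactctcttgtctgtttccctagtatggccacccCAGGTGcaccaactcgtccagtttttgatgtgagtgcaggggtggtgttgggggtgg
Fam46c intron, opened, chr3:100284076-100284275: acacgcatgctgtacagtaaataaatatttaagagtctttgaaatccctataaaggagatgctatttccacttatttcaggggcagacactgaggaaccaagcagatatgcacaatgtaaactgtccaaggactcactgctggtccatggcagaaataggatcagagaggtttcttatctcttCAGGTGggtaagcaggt
Wipi1 intron, opened, chr11:109460503-109460702: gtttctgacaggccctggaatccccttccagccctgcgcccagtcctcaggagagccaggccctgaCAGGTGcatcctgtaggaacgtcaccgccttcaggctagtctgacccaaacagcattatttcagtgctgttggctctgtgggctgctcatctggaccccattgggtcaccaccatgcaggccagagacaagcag

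The region near Mir148a held none of the 5 sets of letters, the first region near Fam46c held CAGCTG 2 times, and the Pitpnc1 region held CAGCTG and the second E2A letters 1 time each. The second Fam46c region and the Wipi1 region, which was the sixth largest rise, held the second E2A letters 1 time each. The closed regions begin with the largest fall, near S1pr3, and the third largest, nearest to Fam204a. The last 3 were chosen because they hold the PU.1 letters, from the named regions outside promoters that closed most.
S1pr3, closed, chr13:51493285-51493484: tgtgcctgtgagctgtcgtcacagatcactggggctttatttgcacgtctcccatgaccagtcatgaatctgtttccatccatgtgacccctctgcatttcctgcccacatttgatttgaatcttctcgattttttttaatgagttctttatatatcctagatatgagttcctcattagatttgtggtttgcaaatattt
Fam204a, closed, chr19:60360878-60361077: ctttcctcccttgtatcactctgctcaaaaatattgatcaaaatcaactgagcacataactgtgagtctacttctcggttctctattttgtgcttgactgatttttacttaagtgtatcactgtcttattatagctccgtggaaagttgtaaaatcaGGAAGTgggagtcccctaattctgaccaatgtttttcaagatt
Mef2c, closed, chr13:83180710-83180909: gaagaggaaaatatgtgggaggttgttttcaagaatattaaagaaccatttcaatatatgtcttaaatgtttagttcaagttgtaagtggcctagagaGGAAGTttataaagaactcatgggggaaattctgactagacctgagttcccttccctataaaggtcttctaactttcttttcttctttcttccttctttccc
Bcl11a, closed, chr11:23918908-23919107: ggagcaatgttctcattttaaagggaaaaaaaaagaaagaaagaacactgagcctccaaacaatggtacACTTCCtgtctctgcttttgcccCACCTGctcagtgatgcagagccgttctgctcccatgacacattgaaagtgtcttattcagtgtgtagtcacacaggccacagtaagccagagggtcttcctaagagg
Adgre1, closed, chr17:57486496-57486695: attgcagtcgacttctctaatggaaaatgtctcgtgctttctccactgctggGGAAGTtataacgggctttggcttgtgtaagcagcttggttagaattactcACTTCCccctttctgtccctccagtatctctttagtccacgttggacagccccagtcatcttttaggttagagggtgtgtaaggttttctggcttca

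The S1pr3 region held none of the 5 sets of letters, the Fam204a and Mef2c regions held GGAAGT 1 time each, and the Adgre1 region held it 2 times. The Bcl11a region held 1 PU.1 and 1 second E2A match. Among the central 200 bp of all 65893 regions on named chromosomes, CAGCTG lay in 14.9%, CACCTG in 19.6%, GGAAGT in 23.0%, GAAANNGAA in 9.28% and ATGCAAAT in 2.92%.

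The change from nB to BMPC reached a large share of the accessible genome and went in both directions. Of the 66177 regions, 11897 opened, which is 18% of all regions tested, and 13330 closed, which is 20.1%. Opened regions rose from a median of 1.12 RPPM in nB to 8.59 RPPM in BMPC, and closed regions fell from 8.71 to 1.09 RPPM. A log2 fold change of at least 3 was reached by 1466 opened and 1661 closed regions. Of the opened regions, 2859 (24.0%) had at most 3 reads in each nB library, and 1941 (14.6%) of the closed regions had at most 3 reads in each BMPC library. Opened regions took between 3.43% and 3.52% of all reads in regions in the nB libraries and between 16.4% and 16.9% in the BMPC libraries. Closed regions took between 18.0% and 18.2% of the reads in nB and between 3.19% and 4.09% in BMPC, with the highest BMPC share in the first library. In the 2 GCB libraries the opened regions took 9.27% and 8.63% of the reads and the closed regions 13.6% and 12.8%, between the nB and the BMPC values. The regions were chosen by their difference between nB and BMPC, so another cell type would tend to lie between.

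Promoters changed less often than regions away from them. Of the 14332 regions annotated as promoter, 11.2% opened and 6.41% closed, and their median log2 fold change was 0.10. Exonic regions opened in 23.3% and closed in 15.3% of 5124 cases, intronic regions opened in 21.2% and closed in 24.1% of 23479, and intergenic regions opened in 17.8% and closed in 25.7% of 23242. Regions outside promoters made up 86.5% of the opened and 93.1% of the closed regions. The share that closed grew with the distance to the nearest annotated transcription start, from 4.24% of regions overlapping a start to 20.6% between 1 and 10 kb and 36.0% between 100 and 500 kb. The share that opened stayed between 17.0% and 20.5% in the 4 bins from 1 to 500 kb, against 9.33% of regions that overlap a start. The few regions more than 500 kb from a start (237) closed in 33.8% of cases. Base composition moved with these classes. Outside promoters, 29.6% of the 11564 regions with a GC content of at most 42.5% closed. Of the 3976 regions outside promoters with a GC content of at least 59%, 10.0% closed. The shares that opened were 20.8% and 18.8% in the same order. The part of GC content in the difference was not tested.

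**Figure D1:**
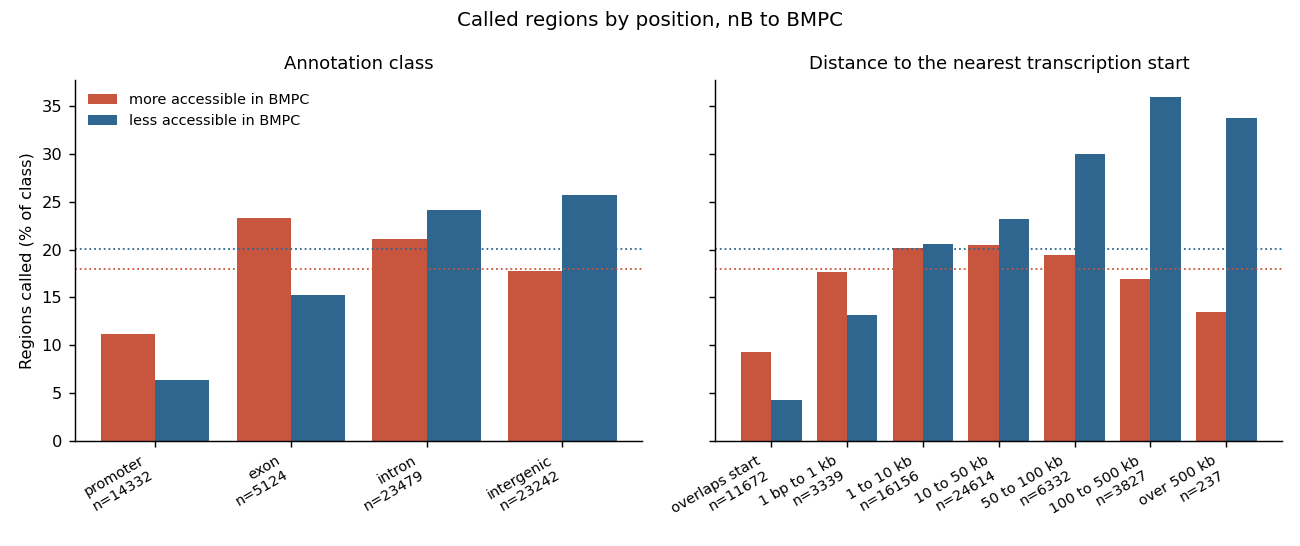
Percent of regions called more accessible (red) or less accessible (blue) in BMPC than in nB, by annotation class (left) and by distance to the nearest transcription start (right); n is the number of regions and the dotted lines are the shares over all 66177 regions, 18% and 20.1%. Promoters have the lowest bars, with 11.2% opened and 6.41% closed, and the blue bars rise with distance up to 500 kb while the red bars lie below their dotted line at both ends, with 9.33% over a start and 13.5% beyond 500 kb.

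The largest rises reached regions with almost no signal in nB. The largest lay 17 kb from Mir148a, the gene of the microRNA miR-148a, at chr6:51237124-51238787, with 1.95, 0.565 and 0.744 RPPM in nB and 123, 126 and 126 RPPM in BMPC (log2 fold change 5.97, SE 0.20, limma adjusted p = 1.42e-18). No nB library had more than 8 reads there whereas the region was wide open in every BMPC library. Regions of Fam46c, which encodes a poly(A) polymerase known from multiple myeloma, took places 2 and 4. The first of them, at chr3:100267235-100268233, had 0.731, 0.188 and 0.372 RPPM in nB and 67.2, 74.3 and 72.6 RPPM in BMPC. The other, intronic at chr3:100283599-100284753, had 0, 0.377 and 0.744 RPPM in nB and 58.0, 60.6 and 52.6 RPPM in BMPC. Their log2 fold changes were 5.68 and 5.44. An intron of Pitpnc1, a lipid transfer protein, at chr11:107160167-107161410 had 0.487, 0.565 and 0.558 RPPM in nB and 66.6, 65.1 and 77.2 RPPM in BMPC, with a log2 fold change of 5.52. The nB and BMPC values of these regions did not overlap, which the limits for this list required. The next rises were an exon of F13b (5.38), an intron of Wipi1 (5.35), the promoter of Evc (5.34), regions between genes near Asb17 (5.30) and 3 kb from the immediate early gene Fos (5.29), and a region nearest to Gnaz (5.25). The Fos region was the most open of these in BMPC, where the 3 libraries had 204, 193 and 231 RPPM, against 3.65, 5.09 and 4.47 RPPM in nB. In 3 of the 10 regions every nB library had at most 3 reads.

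The largest falls were of like size and lay mostly between genes, in 8 of 10 cases. The largest, 10 kb from S1pr3, a sphingosine 1-phosphate receptor gene, at chr13:51493047-51493724, had 69.2, 54.4 and 57.7 RPPM in nB and 1.04, 0 and 0 RPPM in BMPC (log2 fold change -5.59, SE 0.21, limma adjusted p = 1.10e-17). A region near Zyg11b at chr4:107983120-107983938 had 62.1, 59.9 and 62.7 RPPM in nB and 0.520, 0.547 and 0.467 RPPM in BMPC, with a log2 fold change of -5.37. All BMPC values at both regions were below 2 RPPM, whereas no nB value was below 50 RPPM. The others were regions nearest to Fam204a (-5.32) and Edn3 (-5.31), the promoter of Chil4 (-5.30), a region at chr7:136941951-136943187 (-5.26) and one near Cst11 (-5.19). The list ended with the promoter of Uty on chromosome Y (-5.18) and regions at chr9:45102169-45103086 (-5.15) and chr13:52178922-52179873 (-5.14). Uty belongs to the difference in sex between the groups, with 0 and 31.4 RPPM in the female and the male GCB library. At the Cst11 region GCB lay above both other cell types, with 110.0 and 97.9 RPPM against 59.9, 65.0 and 63.5 RPPM in nB and 0.780, 0.547 and 0.934 RPPM in BMPC. For the other 9 falls and all 10 rises the GCB mean lay between the nB and the BMPC mean. These regions were chosen for extreme values in nB and BMPC, so most GCB values would lie between them. At Uty the GCB mean only averages the female and the male library. In the KO libraries, where 18.4% of all regions opened and 16.9% closed, all 10 rises and all 10 falls were called in the same direction. For Uty the sexes of the KO groups differed in the same way, with male nB and female BMPC.

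Many genes held a whole series of regions that moved together, and others held both kinds. Of the 14775 genes with at least 1 region, by the nearest transcript in the table, 5114 had an opened region, 4490 a closed region and 1719 both. Where a gene had a called region and a promoter region, the promoter itself was not called in 74.6% of 6102 cases and called in 1551. Of all 14332 promoter regions, 11.2% opened and 6.41% closed. These genes were picked for a called region, which the promoter itself could be, so the shares are not alike. The genes with the most opened regions were Atxn1 (26 of 49), Zbtb20 (25 of 43), Arfip1 (24 of 59), Etv6 (21 of 35), Fut8 (21 of 45), Nsmce2 (19 of 32), Fndc3a (17 of 32), Msi2 (17 of 49) and, with 16 each, Dusp22, Firre and Hivep3. Of these 11 genes only Atxn1 and Firre had an opened promoter, and Nsmce2 had no promoter region. Firre is an X-linked gene whose regions also differed by sex in GCB. Genes with the most closed regions were Foxp1 (52 of 102), Btg1 (45 of 56), Bcl11a (40 of 48), Lpp (33 of 53), A930011G23Rik (31 of 35), Atp2b1 (26 of 36), Notch4 (26 of 52), Bach2 (24 of 54), Trio (24 of 37) and Sgms1 (21 of 40). Among them Bcl11a and Trio had a closed promoter and Sgms1 had an opened one, while A930011G23Rik and Notch4 had no promoter region. Genes with many regions have more chances to be listed here, so the shares and not the counts are comparable between genes. The 52 regions of Notch4 spanned 353 kb of chromosome 17, and the nearest transcript need not be the gene that a region serves.

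Neighboring regions often changed in the same direction over long stretches. Counting runs of adjacent regions called the same way, 451 runs of at least 5 regions closed and 247 opened. The longest closed run held 34 regions over 227 kb of the Ms4a cluster on chromosome 19 (Ms4a7 to Ms4a4d), a family of tetraspan membrane proteins to which CD20 belongs, with a median log2 fold change of -2.43. Other closed runs held 23 regions at Sorl1 (median -2.66) and 21 regions at Bcl11a (median -2.62). The longest opened run held 20 regions over 176 kb at Fndc3a (median 3.11), and another held 17 regions between Max and Fut8 (median 2.51). A run of 14 regions at Fam46c (median 3.74) contained the 2 regions named above.

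**Figure D2:**
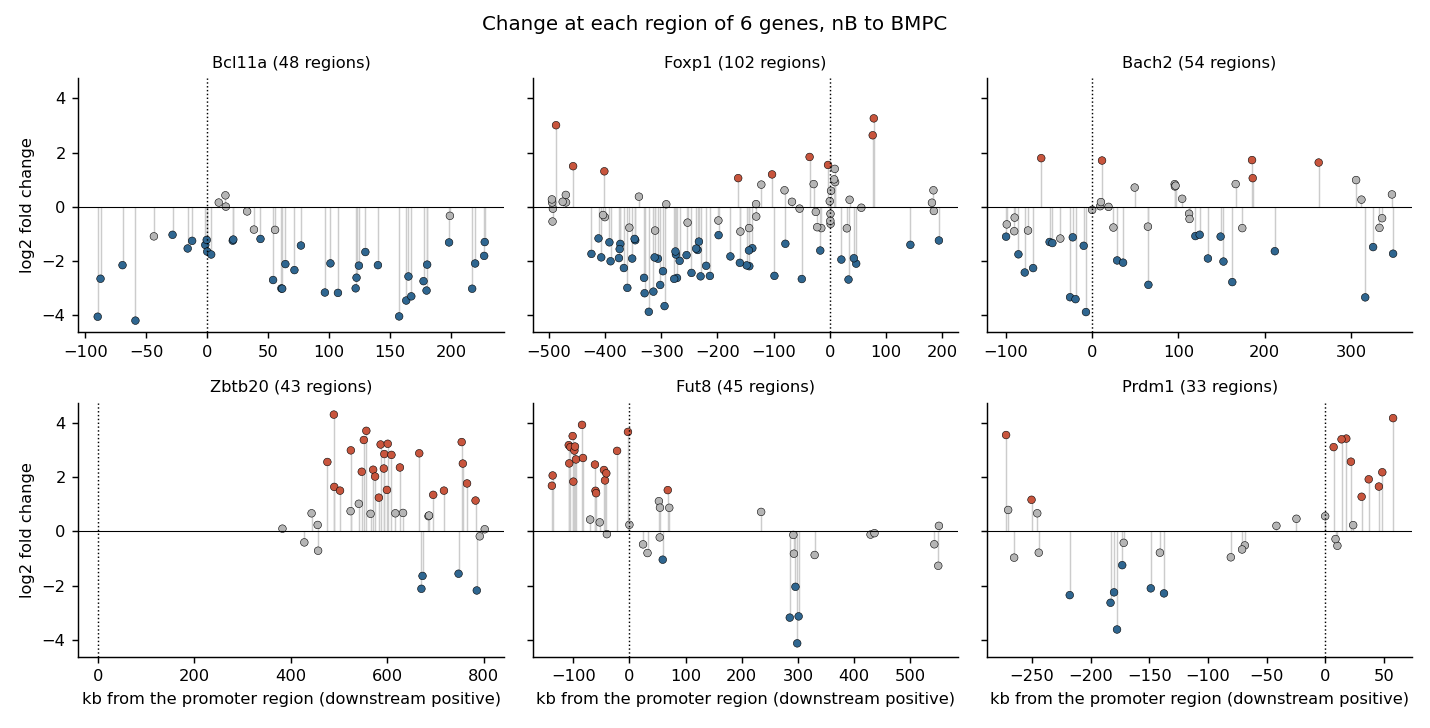
log2 fold change of each region of 6 genes (vertical axis) against its distance in kb from the promoter region of the gene (horizontal axis, dotted line at 0, positive values in the direction of transcription); red points opened, blue points closed and gray points were not called. At Bcl11a 40 of 48 regions closed and none opened, at Zbtb20 25 of 43 opened, and at Prdm1 the 9 opened regions downstream of the promoter contrast with 7 closed regions more than 100 kb upstream.

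The plot of regions by distance shows how these genes differed in layout. At Bcl11a, a zinc finger repressor of lymphoid progenitors and B cells, 9 closed regions lay upstream and 31 from the promoter to 228 kb downstream, with medians of -1.54 and -2.17. At Foxp1, a forkhead factor of B cells, 46 of the 52 closed regions lay upstream of the promoter region used, while 9 opened regions were scattered on both sides. Regions counted for Foxp1 reached 495 kb upstream of this promoter region, which need not be the outermost of the gene. The 25 opened regions of Zbtb20, a BTB zinc finger factor of plasma cells, lay 476 to 783 kb downstream of the outermost promoter region, with a median of 2.36. At Fut8, which adds core fucose to N-glycans, 20 opened regions lay within 138 kb upstream and 5 closed regions within 301 kb downstream.

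Transcription factors of the B cell program had closed regions about 3 times as often as opened ones. Over the 477 regions of 20 such genes, 180 closed (37.7%) and 60 opened (12.6%), against 20.1% and 18% of all regions, with a median log2 fold change of -0.57 against 0.03 for all regions. Of their 20 promoters 5 closed and none opened, against 6.41% and 11.2% of all promoters. The 20 genes were listed with knowledge of B cell biology and of earlier results. Pax5, the factor that holds the B cell identity, had a promoter region at chr4:44723526-44724126 with 45.3, 36.0 and 39.5 RPPM in nB and 3.77, 2.74 and 2.02 RPPM in BMPC (log2 fold change -3.44, SE 0.21, limma adjusted p = 1.08e-13). All 3 BMPC values lay far below the nB values, and the 2 GCB libraries had 23.8 and 24.8 RPPM. An intronic Pax5 region at chr4:44692962-44693846 had 37.0, 29.4 and 29.6 RPPM in nB and 2.47, 0.730 and 1.09 RPPM in BMPC, with a log2 fold change of -3.82. The promoters of Spib (-1.88), an ETS factor close to PU.1, of Bcl11a (-1.65), of the E protein inhibitor Id3 (-1.36) and of Lef1 (-1.75), a factor of the Wnt pathway, also closed. With 5 RPPM added before the log in place of 1, the Bcl11a promoter was not called (-0.92).

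Several of the other regulators kept an open promoter while regions around it closed. Ebf1, which acts with Pax5, had 71.1, 65.9 and 65.1 RPPM in nB and 45.0, 48.9 and 41.4 RPPM in BMPC at its promoter, a difference that did not reach the fold limit (log2 fold change -0.57, limma adjusted p = 6.69e-04). A region between genes at chr11:44880058-44880566, in contrast, had 21.2, 16.4 and 21.8 RPPM in nB and 0.520, 0 and 0 RPPM in BMPC (log2 fold change -4.17, SE 0.31, limma adjusted p = 4.84e-12). The second and the third BMPC library thus had no read there. At Bach2, a repressor of Prdm1, the promoter had 121, 101 and 105 RPPM in nB and 98.2, 104 and 98.3 RPPM in BMPC and the groups overlapped. A region 7 kb away at chr4:32318646-32319270 had 34.8, 24.7 and 28.8 RPPM in nB and 0.650, 1.46 and 1.09 RPPM in BMPC and a log2 fold change of -3.89. Bcl6, the repressor that directs the germinal center program, had 10 closed and no opened regions among 16. The largest fall lay 163 kb away with 55.3, 46.7 and 48.8 RPPM in nB and 4.42, 2.01 and 1.25 RPPM in BMPC (-3.94). Its promoter had 58.7, 53.5 and 49.3 RPPM in nB and 35.5, 24.6 and 29.7 RPPM in BMPC and missed the fold limit at -0.84. The promoter of Spi1, which encodes PU.1, had 40.7, 39.0 and 38.0 RPPM in nB and 33.4, 35.2 and 37.8 RPPM in BMPC (log2 fold change -0.14, limma adjusted p = 0.415) and neither of its 2 regions was called.

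Opened regions also occurred among these genes. Irf8, an interferon regulatory factor of B and myeloid cells, had 8 opened and 10 closed regions among 29. Its largest change was a rise 25 kb from the start, at chr8:123234944-123235717, with 0.731, 0.188 and 0.186 RPPM in nB and 27.7, 34.8 and 29.7 RPPM in BMPC (log2 fold change 4.55, SE 0.30, limma adjusted p = 5.79e-13). No nB library had more than 3 reads in it, while the Irf8 promoter had 50.9, 50.5 and 47.6 RPPM in nB and 39.5, 44.9 and 43.0 RPPM in BMPC and was not called. Mef2c, a MADS box factor of B cells, had 16 closed and 11 opened regions among 67. Its largest fall was at the region whose sequence is shown above, with 40.9, 42.8 and 45.4 RPPM in nB and 1.56, 1.64 and 0.779 RPPM in BMPC (-4.26). Pou2af1, the coactivator of Oct factors, had 4 opened and 3 closed regions among 14, the largest change being a rise of 2.68.

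Genes of B cell receptor signaling closed at 7 of 19 promoters and opened at none, against 6.41% closed and 11.2% opened of all promoters. Over 240 regions of 20 genes of the receptor and its coreceptors, 91 closed (37.9%) and 25 opened (10.4%), with a median of -0.69. Of all regions 20.1% closed and 18% opened. Ms4a1, which encodes CD20, had 84.3, 78.4 and 78.0 RPPM in nB and 14.6, 11.7 and 13.9 RPPM in BMPC at its promoter (log2 fold change -2.50, SE 0.13, limma adjusted p = 4.28e-15). The promoter of Cd22, an inhibitory coreceptor, had 23.6, 22.6 and 14.3 RPPM in nB and 1.82, 1.64 and 1.87 RPPM in BMPC, with a log2 fold change of -2.90. In both cases all BMPC libraries lay below all nB libraries, but in GCB Ms4a1 had 88.4 and 82.9 RPPM, not below nB, and Cd22 7.92 and 10.8 RPPM. The promoters of the signaling chains Cd79a (-1.35) and Cd79b (-1.52), of the coreceptor Cd72 (-1.50) and of the kinase Blk (-1.45) closed as well.

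Downstream of the receptor, many regions closed and some opened. Bank1, an adaptor of the receptor, had 20 closed and 4 opened regions among 35, and Prkcb, the protein kinase C of this pathway, had 13 closed and 1 opened among 31. The kinase genes Syk and Lyn held rises as their largest change. An intronic Syk region had 0.974, 3.20 and 3.35 RPPM in nB and 23.4, 27.2 and 31.8 RPPM in BMPC (3.10). A region annotated to Lyn had 1.71, 1.13 and 1.67 RPPM in nB and 23.7, 22.3 and 26.6 RPPM in BMPC (3.34). Of the 18 Lyn regions, though, 9 closed and 2 opened. Both regions of Cd81, a tetraspanin that plasma cells are known to keep, opened, with a largest rise of 2.58.

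Antigen presentation genes held no opened region. By nearest transcript, 4 of the 10 genes had 31 regions, of which 17 closed (54.8%), with a median of -1.34. Among all regions 20.1% closed and 18% opened. H2-Aa, H2-Ab1, H2-Eb1, H2-DMb1, H2-Oa and H2-Ob had a promoter region but no counted region. Regions near these genes can thus be counted for other genes. Of 9 promoters 5 closed, against 6.41% of all promoters. Ciita, the coactivator that switches on MHC class II genes, had an intronic region at chr16:10495875-10496507 with 31.4, 32.6 and 36.7 RPPM in nB and 1.17, 0 and 0.311 RPPM in BMPC (log2 fold change -4.61, SE 0.23, limma adjusted p = 2.87e-15). The second BMPC library had no read there, and the 2 GCB libraries had values like those of nB, with 32.1 and 39.3 RPPM. The Ciita promoter itself had 33.1, 32.2 and 28.7 RPPM in nB and 17.4, 17.5 and 13.5 RPPM in BMPC and stayed just under the fold limit (-0.92). Genes for the peptide loading proteins closed at the promoter, and H2-DMb2, the most open of them in nB, went from 99.7 ± 5.75 to 10.8 ± 1.20 RPPM (log2 fold change -3.10, SE 0.13, limma adjusted p = 1.20e-16; SD, n = 3 each). H2-Oa (-3.23), H2-DMb1 (-1.73), H2-Ob (-1.32) and the class II chain gene H2-Aa (-1.20) also closed. The promoters of H2-Ab1 (-0.88) and of the invariant chain gene Cd74 (-0.73) were lower in BMPC but short of the fold limit, which H2-Ab1 reached without the second BMPC library (limma adjusted p = 5.39e-06). The promoter of H2-Eb1 had overlapping values, 13.6, 10.4 and 13.0 RPPM in nB and 11.6, 22.3 and 17.8 RPPM in BMPC (0.41).

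Surface and homing receptors of B cells had the highest share of closed regions among the lists with more than 100 regions. Of 169 regions of 17 genes, 98 closed (58.0%) and 12 opened (7.10%), with a median of -1.31. The shares of all regions were 20.1% closed and 18% opened. Fcer2a, which encodes CD23, had 36.8, 43.7 and 46.7 RPPM in nB and 0.910, 0.365 and 2.34 RPPM in BMPC at its promoter (log2 fold change -4.39, SE 0.26, limma adjusted p = 7.09e-14), and GCB had 14.1 and 14.5 RPPM. Cxcr5, the receptor that guides B cells into follicles, had 62.1, 58.4 and 67.4 RPPM in nB and 9.36, 5.11 and 7.63 RPPM in BMPC (-2.96). Both promoters separated the groups completely. Ccr7, the receptor for T zone chemokines, closed at the promoter (-1.86) and in 7 of 12 regions. Cd83, an activation marker, closed in 13 of 18 regions, led by a region 113 kb away with 51.2, 44.5 and 48.8 RPPM in nB and 2.86, 0.912 and 2.18 RPPM in BMPC (-4.10). The 12 opened regions lay in 6 genes, 3 of them at Cd80, 2 each at Cd86, Cxcr5, S1pr1 and Tnfrsf13c and 1 at Cd24a, and Cd80 and Cd24a had no closed region. The promoter of Cd80, a costimulatory ligand, opened with 3.17, 2.26 and 2.42 RPPM in nB and 21.2, 24.3 and 24.9 RPPM in BMPC (2.76). A region 160 kb from S1pr1, a receptor for exit from lymph nodes, had 0.487, 1.88 and 1.49 RPPM in nB and 26.9, 25.4 and 25.5 RPPM in BMPC (3.61), while 17 of the 32 S1pr1 regions closed.

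**Figure D3:**
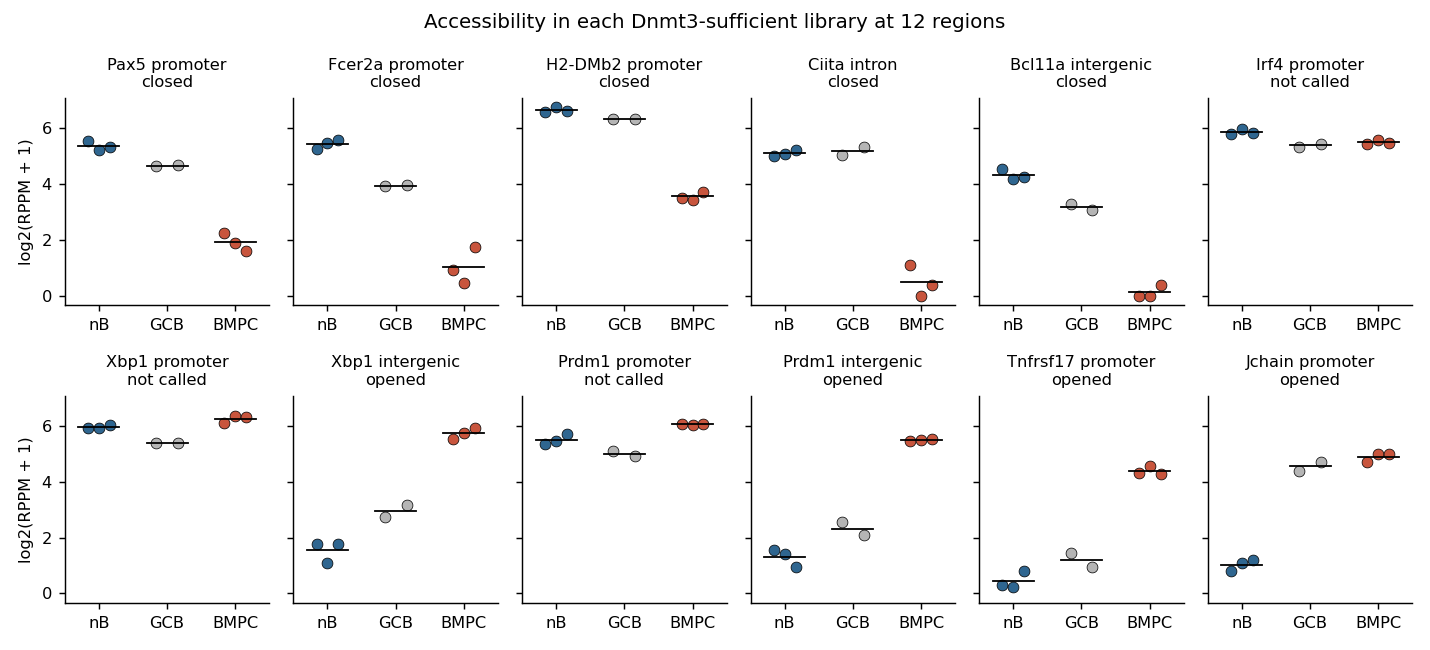
log2(RPPM + 1) in each Dnmt3-sufficient library at 12 regions; points are libraries (3 nB in blue, 2 GCB in gray, 3 BMPC in red), the short lines are group means and the title of each panel gives the call for BMPC against nB. The 3 promoters of Irf4, Xbp1 and Prdm1 are high in all 3 cell types, while the distal regions of Xbp1 and Prdm1 and the promoters of Tnfrsf17 and Jchain are low in nB and high in BMPC.

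The transcription factors of the plasma cell program showed the opposite balance to those of B cells, and again mostly away from promoters. Over 234 regions of 14 genes, 92 opened (39.3%) and 33 closed (14.1%), against 18% and 20.1% of all regions, with a median of 0.59. Of their 14 promoters 2 opened, against 11.2% of all promoters. Prdm1, which encodes Blimp-1, had an open promoter in both cell types, 39.5, 42.6 and 51.4 RPPM in nB and 66.7, 64.8 and 65.4 RPPM in BMPC, with a rise below the fold limit (log2 fold change 0.56, limma adjusted p = 7.29e-04). Its largest change lay 58 kb downstream of the promoter region, at chr10:44119880-44121233, with 1.95, 1.70 and 0.931 RPPM in nB and 42.9, 44.0 and 45.2 RPPM in BMPC (log2 fold change 4.18, SE 0.27, limma adjusted p = 3.68e-13). All 3 BMPC values exceeded 40 RPPM while GCB, with 4.84 and 3.28 RPPM, lay far below BMPC. Of 33 Prdm1 regions 11 opened and 7 closed, and the 7 closed ones all lay 138 to 218 kb upstream. Xbp1, the factor of the unfolded protein response, had a promoter at 59.0, 59.3 and 64.0 RPPM in nB and 68.5, 80.1 and 77.9 RPPM in BMPC (0.31) that was not called. A region 2 kb from it at chr11:5426196-5427284 had 2.44, 1.13 and 2.42 RPPM in nB and 45.5, 52.9 and 60.1 RPPM in BMPC (log2 fold change 4.19, SE 0.24, limma adjusted p = 2.42e-14). This neighbor was low in all nB and in both GCB libraries (5.72 and 7.96 RPPM).

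Irf4, which is needed for plasma cells and is also active in stimulated B cells, had 55.1, 61.2 and 55.8 RPPM in nB and 41.7, 46.9 and 43.8 RPPM in BMPC at its promoter (-0.37). Its largest change was a fall, 12 kb away, from 39.7 ± 2.52 to 3.15 ± 0.753 RPPM (-3.31; SD, n = 3 each). Of its 12 regions 2 opened and 3 closed. Zbtb20 behaved differently at its ends, with 15.1, 16.2 and 17.1 RPPM in nB and 12.2, 5.11 and 7.63 RPPM in BMPC at the outermost promoter (-0.95). This promoter was not called, but was without the first BMPC library (-1.24, limma adjusted p = 0.000125). An intron at chr16:43396611-43397392 had 0.244, 0.188 and 0.186 RPPM in nB and 22.1, 22.8 and 23.8 RPPM in BMPC (log2 fold change 4.31, SE 0.21, limma adjusted p = 1.07e-15). In GCB that intron was already at 21.6 and 17.8 RPPM. Ell2, an elongation factor that shapes immunoglobulin mRNA, opened in 8 of 11 regions. The largest rise was in an intron with 2.68, 2.26 and 1.67 RPPM in nB and 76.2, 77.4 and 73.8 RPPM in BMPC (log2 fold change 4.59, SE 0.19, limma adjusted p = 1.01e-16). The promoter of Bhlha15, which encodes the secretory cell factor Mist1, had 14.9, 15.3 and 18.6 RPPM in nB and 65.3, 69.2 and 72.1 RPPM in BMPC (2.02). That of Zbtb32, a zinc finger repressor, opened from 3.63 ± 0.253 to 15.8 ± 2.19 RPPM (1.85; SD, n = 3 each). Creb3l2, a membrane-bound factor of the secretory pathway, had 7 opened and no closed regions among 14.

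Over 187 regions of 19 genes for surface and homing proteins of plasma cells, 67 opened (35.8%) and 35 closed (18.7%), with a median of 0.37. Among all regions 18% opened and 20.1% closed. Of their 18 promoters 4 opened and 14 were not called, against 11.2% opened among all promoters. Tnfrsf17, which encodes the survival receptor BCMA, had 0.244, 0.188 and 0.744 RPPM in nB and 19.0, 22.6 and 18.4 RPPM in BMPC at its promoter (log2 fold change 3.93, SE 0.31, limma adjusted p = 1.97e-11). Its nB values are at the level of a few reads, and GCB had 1.76 and 0.937 RPPM. Cd28, a costimulatory receptor known in T cells and long-lived plasma cells, had 2.92, 2.64 and 2.23 RPPM in nB and 27.4, 27.6 and 28.5 RPPM in BMPC at the promoter (3.01). In an intron it had 1.95, 2.07 and 0.372 RPPM in nB and 34.1, 34.7 and 42.5 RPPM in BMPC (4.03). Epcam, an adhesion molecule, and Il13ra1, a cytokine receptor on chromosome X, opened at the promoter by 1.92 and 1.91. Sdc1 encodes CD138, the protein used for the sort, and its largest change was an intronic rise with 1.71, 3.39 and 2.61 RPPM in nB and 46.7, 49.1 and 49.4 RPPM in BMPC (3.82). Of its 7 regions 5 opened and none closed.

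Itga4, the alpha chain of the integrin VLA-4, had a promoter with 115, 134 and 117 RPPM in nB and 72.2, 75.9 and 71.5 RPPM in BMPC (-0.72, not called). A region 117 kb away at chr2:78976864-78978673 had 5.36, 3.20 and 2.23 RPPM in nB and 86.1, 95.4 and 82.4 RPPM in BMPC (log2 fold change 4.33, SE 0.21, limma adjusted p = 9.94e-16). The distant region was the higher of the pair in BMPC and the lower in nB, but of the 20 Itga4 regions 5 opened and 4 closed, with a median of -0.36. Cxcr4, the receptor for the bone marrow chemokine CXCL12, had 16 closed and 10 opened regions among 40 and a promoter with overlapping groups (-0.18). A region 62 kb away had 2.19, 1.70 and 0.744 RPPM in nB and 39.7, 37.8 and 46.1 RPPM in BMPC (4.09). Il6ra, the receptor of interleukin 6, opened in 6 of 12 regions, led by 3.44. Against the direction of the list, Il5ra had 5 closed and no opened regions among 9. Cd44 had its largest change in a closed intronic region (-3.28) although 9 of 20 regions opened, and Slamf7 had a closed region as its largest change (-2.37).

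**Figure D4:**
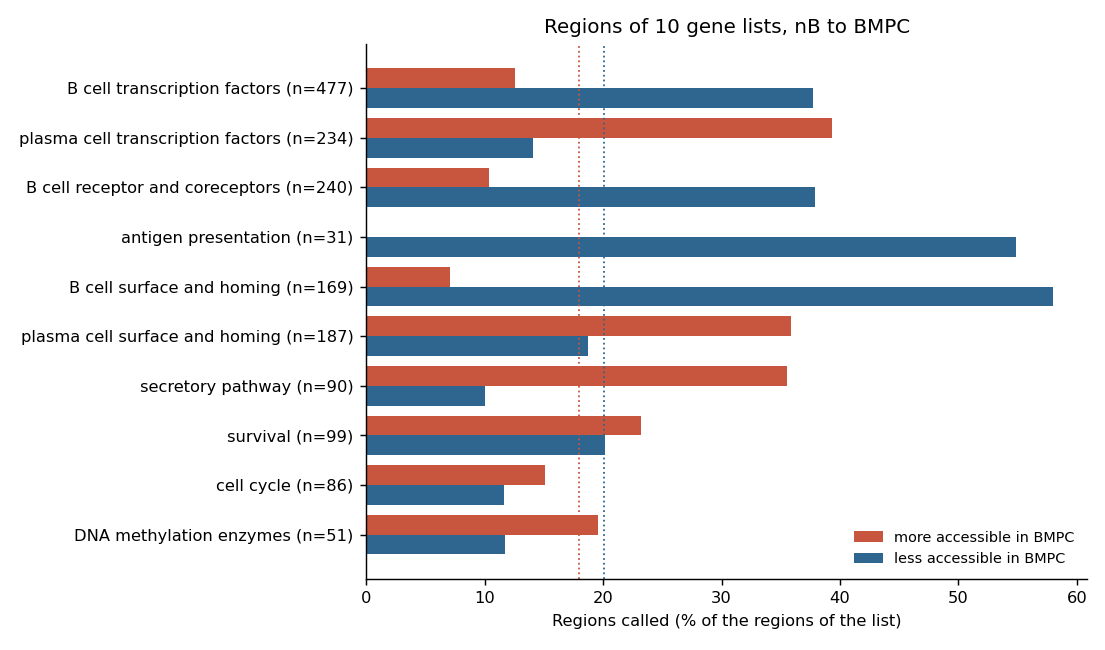
Percent of the regions of 10 gene lists that opened (red) or closed (blue) in BMPC; n is the number of regions and the dotted lines mark 18% and 20.1%, the shares of all regions. The 4 lists of B cell genes have blue bars from 37.7% to 58.0%, and the lists of plasma cell factors, plasma cell surface and secretory genes have red bars from 35.6% to 39.3%.

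Genes of the secretory pathway opened in 32 of 90 regions (35.6%) and closed in 9 (10%), with a median of 0.58. The shares of all regions were 18% opened and 20.1% closed. Of the 19 promoters 3 opened, against 11.2% of all promoters. Jchain, which joins IgM and IgA into polymers, had 0.731, 1.13 and 1.30 RPPM in nB and 25.0, 31.0 and 31.0 RPPM in BMPC at its promoter (log2 fold change 3.87, SE 0.20, limma adjusted p = 3.05e-15) and opened in 6 of 8 regions. The GCB libraries already had 19.8 and 25.3 RPPM there. Sec24d, a coat protein of vesicles that leave the endoplasmic reticulum, rose at the promoter from 21.1 ± 1.91 to 97.3 ± 3.53 RPPM (2.15; SD, n = 3 each), and Fkbp11, a prolyl isomerase of that compartment, rose there by 1.24. With 5 RPPM added before the log in place of 1, the Fkbp11 promoter was not called (0.98). Elsewhere the rises were intronic or exonic. Edem2, which acts in the disposal of misfolded glycoproteins, had an intron with 1.46, 0.754 and 0.372 RPPM in nB and 37.1, 50.0 and 40.8 RPPM in BMPC (4.58). Txndc5, a disulfide isomerase, had one with 0.974, 1.13 and 1.67 RPPM in nB and 33.7, 37.8 and 38.0 RPPM in BMPC (4.06). An exonic region of Creld2 had 0.244, 0.377 and 0.558 RPPM in nB and 15.9, 17.7 and 18.5 RPPM in BMPC (3.72). The chaperone genes Calr and Canx had open promoters that were not called. The Calr promoter, for example, had 90.9, 101 and 88.6 RPPM in nB and 84.0, 91.0 and 93.3 RPPM in BMPC.

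Survival genes did not move one way, with 23 opened (23.2%) and 20 closed (20.2%) of 99 regions and a median of 0.06. These values lie near those of all regions, with 18% opened, 20.1% closed and a median of 0.03. Mcl1, on which plasma cells are known to depend, had a promoter with 69.9, 60.5 and 74.6 RPPM in nB and 76.1, 80.5 and 87.5 RPPM in BMPC (0.25, not called). Of its 8 regions 3 opened, the largest rise being 2.30. In Bcl2, 11 regions closed and 5 opened among 33, but the largest change was an intronic rise with 6.82, 9.23 and 8.75 RPPM in nB and 70.5, 77.7 and 69.8 RPPM in BMPC (3.00). Bcl2l1, which encodes Bcl-xL, had an intronic rise with 3.17, 2.83 and 2.61 RPPM in nB and 38.0, 42.5 and 39.9 RPPM in BMPC (3.41). The promoter of Bbc3, which encodes the death protein PUMA, opened with 54.1, 56.9 and 54.3 RPPM in nB and 124, 125 and 134 RPPM in BMPC (1.19). Bcl2a1b, a target of receptor and NF-kB signals, closed in an intron with 58.0, 62.4 and 63.8 RPPM in nB and 4.29, 5.11 and 4.83 RPPM in BMPC (-3.44). The Bcl2a1 genes are near-identical copies, so the split of reads between them is uncertain.

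Few regions of cell cycle genes were called, 13 opened (15.1%) and 10 closed (11.6%) of 86, both below the shares of all regions. The promoters of Cdkn2a, which encodes cell cycle inhibitors, and of the cyclin gene Ccnd2 opened, from 10.8 ± 2.56 to 47.7 ± 2.83 RPPM (2.07) and from 7.46 ± 0.591 to 17.7 ± 0.510 RPPM (1.15; SD, n = 3 each). With 5 RPPM added before the log in place of 1, the Ccnd2 promoter was not called (0.87). The Myc promoter had 49.9, 45.8 and 38.3 RPPM in nB and 55.9, 63.1 and 63.4 RPPM in BMPC (0.44, not called). A region 4 kb away closed with 22.4, 19.0 and 19.9 RPPM in nB and 2.08, 2.37 and 2.02 RPPM in BMPC (-2.76). Mki67, a marker of dividing cells, had overlapping promoter values (0.16). Among the genes of DNA methylation, 10 of 51 regions opened (19.6%) and 6 closed (11.8%), against 18% and 20.1% of all regions. None of 8 promoters was called. Dnmt3a and Dnmt3b, the genes that were floxed but intact here, had open promoters in every library, with 27.3, 20.0 and 21.0 RPPM in nB and 28.0, 20.6 and 23.4 RPPM in BMPC at Dnmt3a (0.07). Among the methyltransferases the largest changes were a fall of -1.37 in a Dnmt3a intron and rises of 2.25 and 3.06 in introns of Dnmt3b and Dnmt1, the latter from 0.680 ± 0.0998 to 13.2 ± 3.03 RPPM (SD, n = 3 each). With a pseudocount of 5 RPPM the Dnmt3a and Dnmt3b regions were not called (-0.57 and 0.98). Tet3, which oxidizes methylated cytosine, closed in 3 of 4 regions, with its largest fall in an intron (-2.43), and its relative Tet1 opened in 3 of 6.

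In the immunoglobulin loci accessibility mostly fell or was not called, though plasma cells are known to transcribe them strongly. Within the annotated spans 24 of 40 regions closed and none opened at Igh (median -1.34), 85 of 127 closed and 4 opened at Igk (median -1.59), and 10 of 22 closed and none opened at Igl (median -0.85). Among all regions 20.1% closed and 18% opened, with a median of 0.03. The sum over the regions of Igh was 367, 322 and 347 RPPM in nB and 129.5, 95.2 and 122 RPPM in BMPC. Values of single gene segments are uncertain here, because near-identical copies can share reads. The study found most immunoglobulin transcripts of BMPC to be class-switched, and the part of class switching in the Igh values was not tested.

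Opened and closed regions differed in the letters at their centers. Within the central 200 bp, the PU.1 letters lay in 39.5% of the 13297 closed regions and 15.2% of the 11857 opened regions on named chromosomes, against 23.0% of all regions. The E2A letters CAGCTG lay in 20.9% of opened and 12.2% of closed regions, and the second E2A letters CACCTG in 29.2% and 14.5%, against 14.9% and 19.6% of all regions. ISRE letters were found in 13.7% of opened and 9.58% of closed regions and the octamer in 5.02% and 3.63%, with 9.28% and 2.92% over all regions. The letters CCACNAGNG, taken from the CTCF motif, lay in 3.26% of opened and 3.31% of closed regions and in 7.41% of regions that were not called. E2A belongs to the E proteins that act in both B and plasma cells, PU.1 is the ETS factor encoded by Spi1, CTCF is an architectural protein, and the shares say nothing of which factor was present.

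Outside promoters the shares of the E2A and PU.1 letters were graded with the size of rises but not with that of falls. PU.1 letters lay in 38.7% to 41.9% of regions in the 3 bins of falls, in 20.6% of uncalled regions and in 16.7%, 15.6% and 11.6% of regions with rises of 1 to 2, 2 to 3 and at least 3 on the log2 scale. The second E2A letters lay in 13.2% to 14.7% of regions that fell, 20.2% of uncalled regions and 27.3%, 32.0% and 35.3% of regions that rose. For the E2A letters these shares were 11.1% to 12.7%, 15% and 21.0%, 22.3% and 23.6%. The octamer was more frequent on both sides, with 4.23% of the largest falls and 6.80% of the largest rises against 2.54% of uncalled regions. The order of opened against closed regions was the same in each of 5 classes of GC content for these 3 sets of letters (PU.1, E2A and second E2A). In the class with the lowest GC content, closed regions held the PU.1 letters in 36.3% and opened regions in 13.3% of cases, and in the class with the highest in 28.6% and 11.5%. For CACCTG the shares of opened and closed regions were 16.9% and 7.95% in the lowest class and 32.0% and 24.1% in the highest. These are descriptions without a test, because regions of 1 genome are not replicates.

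**Figure D5:**
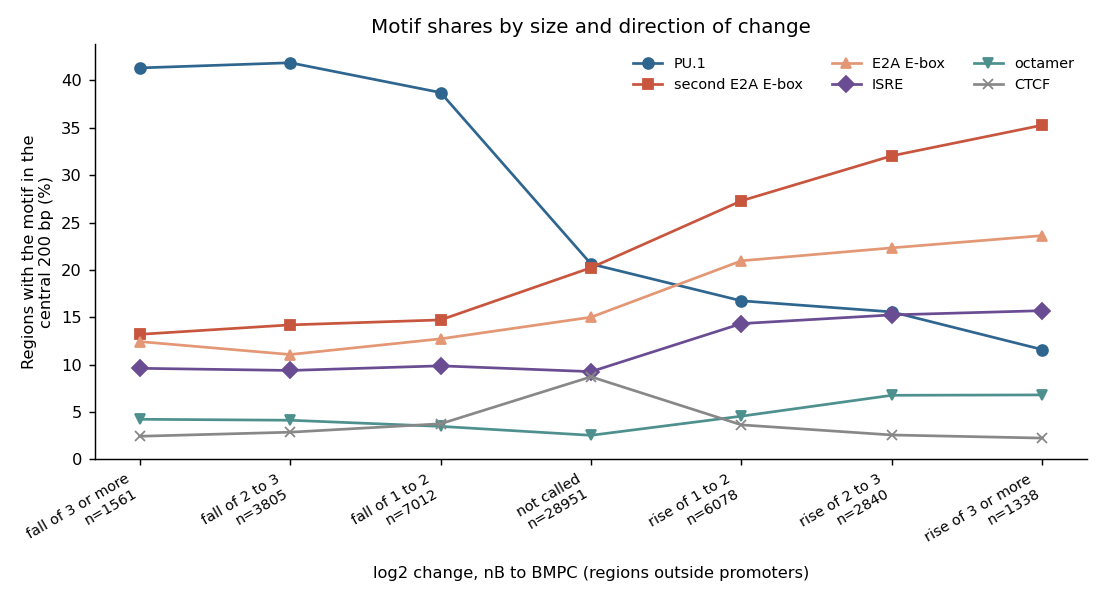
Percent of regions outside promoters that hold each of 6 sets of letters in their central 200 bp (vertical axis), in 7 bins of the log2 change between nB and BMPC (horizontal axis, falls on the left), with n regions per bin. The PU.1 line drops from 41.3% to 11.6% and the second E2A line climbs from 13.2% to 35.3%, while CTCF is highest among regions that were not called.

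The direction of the lists was also found in the KO libraries, where neither group shares a library with those above. KO nB were again all male, and KO BMPC all female and taken 30 days after immunization. Sex, tissue and immunization thus cannot be told apart from cell type there either. The KO contrast came from the same fit of 16 libraries. From nB to BMPC in KO mice, with 18.4% of all regions opened and 16.9% closed, 167 of the 477 regions of B cell factors closed and 53 opened, and 91 of the 234 regions of plasma cell factors opened and 28 closed. Of the 180 regions of B cell factors that closed in Dnmt3-sufficient mice 155 also closed in KO, and of the 92 opened regions of plasma cell factors 81 also opened. The same counts over all called regions are not given here, so whether the lists differ from other called regions cannot be told. The log2 fold changes of the Pax5 promoter were -3.44 and -3.48 in Dnmt3-sufficient and KO mice, and those of the distal Prdm1 region 4.18 and 4.45.

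Markers of the cell types were compared at their promoters to see how far the sorted cells met their labels. The summed promoter level of 6 B cell markers was 260 to 290 RPPM in nB and 84.4 to 93.2 RPPM in BMPC, and that of 5 plasma cell markers 154 to 173 RPPM and 221 to 245 RPPM. Sdc1 has no promoter region in the table and so is not part of that sum. B cell markers thus stayed above 0 in BMPC, most of all Ebf1, with 41.4 to 48.9 RPPM at its promoter. Summed promoters of 3 T cell markers were 45.8 to 52.9 RPPM in nB and 32.4 to 36.9 RPPM in BMPC, while Cd3e, Cd3d, Cd3g, Cd4, Cd8a, Thy1 and Bcl11b have no promoter region. Within that list Cd5, a T cell protein also found on some B cells, closed at the promoter with 24.1, 23.5 and 25.7 RPPM in nB and 3.90, 1.28 and 0.934 RPPM in BMPC. Over regions, 11 of the 25 of the list opened (44%), against 18% of all regions. Of the 11, 7 lay at Tcf7, a factor of T and progenitor cells, and 2 at Cd4, which has no other region. The larger of the Cd4 rises had 0.731, 0.754 and 1.12 RPPM in nB and 14.7, 18.6 and 14.5 RPPM in BMPC (3.18), with all BMPC values above all nB values.

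Markers of other lineages of the bone marrow differed in both directions. The summed promoters of 6 myeloid markers were 32.6 to 39.4 RPPM in nB and 55.3 to 59.8 RPPM in BMPC. Those of 7 NK and dendritic cell markers were 60.7 to 67.6 RPPM and 119 to 124 RPPM, and of 2 erythroid and megakaryocyte markers 17.1 to 18.1 RPPM and 21.3 to 27.4 RPPM. Lyz2, Ly6g, Mpo and S100a8, which define neutrophils and monocytes, have no region in the table, nor do Gata1 and the T cell genes Cd3g, Cd8a, Thy1 and Bcl11b. In the NK and dendritic cell list the promoters of Flt3, a cytokine receptor, and Klrb1c opened (1.33 and 1.03). Flt3 had 18.8, 17.7 and 18.2 RPPM in nB and 43.2, 51.3 and 48.4 RPPM in BMPC there, but the largest changes at both were closed regions (-2.43 and -2.44). The promoter of Cebpe, a factor of granulocytes, had 1.71, 1.88 and 2.98 RPPM in nB and 10.4, 11.3 and 12.8 RPPM in BMPC (1.99) and opened. In all, 12 of 33 myeloid regions closed (36.4%) and 6 opened (18.2%), against 20.1% and 18% of all regions. Adgre1 closed in 6 of 7, led by the region shown above (38.7, 49.7 and 41.5 RPPM in nB and 2.60, 0.730 and 1.71 RPPM in BMPC, -4.10). Of 32 regions of progenitor and early B cell markers 11 closed (34.4%) and 6 opened (18.8%), 5 of the 6 at Kit. The sum over the 3 promoters of this list was 19.5 RPPM in the first BMPC library, against 5.47 and 8.10 RPPM in the others and 9.74 to 14.1 RPPM in nB. At the promoter of Kit, a receptor of progenitors and mast cells, the BMPC libraries had 10.5, 3.83 and 3.43 RPPM, against 0.487, 0.188 and 0 RPPM in nB, a log2 fold change of 2.37 that was 1.94 without the first library. The Meis1 promoter had 7.31, 12.2 and 12.3 RPPM in nB and 7.93, 1.28 and 4.36 RPPM in BMPC with overlapping groups. Its call (-1.25) was lost without the second BMPC library (-0.71, limma adjusted p = 0.0748) and without the second or the third nB library (-1.14 and -1.13, limma adjusted p = 0.0232 and 0.0230). At Erg, an ETS factor of progenitors, a region over an exon closed with 26.3, 27.3 and 29.6 RPPM in nB and 0.780, 0.182 and 0.156 RPPM in BMPC (-4.42). The part of other cell types in these differences was not tested.

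Hbb-b1, a globin gene, showed 1 nB library apart from the others, with 12.4, 13.8 and 0.186 RPPM in nB and 1.04, 0 and 0.311 RPPM in BMPC at a called region (-2.15). The call was lost without the first or the second nB library (-1.59 and -1.52, limma adjusted p = 0.0343 and 0.0387) or the second BMPC library (-1.92, limma adjusted p = 0.0155).

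Regions that differed by sex were sought in GCB, where 2 male and 4 female libraries exist, C and KO combined with genotype as a term. There limma called 39 regions (0.0589% of all), 38 of them on chromosomes X and Y and none on an autosome. An unadjusted limma p below 0.05 was found for 3028 of 64511 autosomal regions (4.69%). So few libraries of another cell type cannot show that a difference is absent. The part of sex in the changes from nB to BMPC was not tested. Among the 39, 23 opened from nB to BMPC, all higher in females, and 8 closed, 6 of them higher in males. The 23 include regions of Firre and Xist. On chromosome Y 8 of 9 regions closed and on chromosome X 13.4% of 1638 regions opened and 18.3% closed, against 14.3% to 20.5% opened and 16.3% to 24.7% closed on the autosomes. The number of regions called by sex rests on few libraries, being 14 or 18 without the first or the second C library and 10 without the fourth KO library, again with none on an autosome. Without the first KO library 6 of 46 were autosomal.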

How the data were processed

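The labels of the ATAC-seq samples gave cell type, genotype and sex, and these set the groups. Reads were trimmed by the authors and aligned with Bowtie (1.1.1 per the labels) to the mouse build mm9, after which they called peaks in each sample with MACS2 (2.1.0.20140616) at a q-value limit, took the union of the peaks and removed 1 KO BMPC library for its share of reads in peaks. The methods of the study give later versions of Bowtie and MACS2 than the labels do. The authors deposited RPM values (named RPPM here), the reads in a region per 1e+06 reads in all regions of the library. The deposited log2 values, p-values and likelihood ratio scores are results of the authors' edgeR (3.12.1) comparisons and were not used. All RPPM values were whole multiples of 1 read within a tolerance of 0.001 (100% of values), so that reads could be recovered. Transposase cut sites per base cannot be recovered from these values.

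Values of log2(RPPM + 1) were fitted by limma (3.58.1, R 4.3.3) in 1 model of 16 libraries with 6 group means, with a trend of the variance on the mean and the contrast BMPC minus nB. Calls used the limits given above. The study names edgeR; on the recovered reads, edgeR's quasi-likelihood test (4.0.16) called 14431 opened and 15281 closed regions. P-values rest on the spread between libraries within all 6 groups, so the KO libraries and the pooled GCB libraries add to it. Regions count for the gene of the nearest transcript in the table and promoters for the gene with the nearest start, so that a gene can have a promoter and no counted region. The genes named are, for each list described, the promoter region nearest the start and the called region with the largest change, the 10 largest rises and falls among called regions with at least 5 RPPM in the higher group and no overlap, and the 10 genes with the most opened or closed regions (11 with ties). Which of these are written out was chosen after their values were seen. Some results are not reported here. Members and lists were chosen with earlier results of these data known. Other settings were pseudocounts of 0.1 and 5 RPPM, a minimum mean of 1 RPPM, TMM scaling, quantile normalization, no trend, the compared groups alone, an adjusted p of 0.05, each library left out, edgeR and DESeq2 1.42.0. Sequences were read from the mm9 genome with pysam 0.24.0, and the script was tested on simulated data. Plots were drawn with matplotlib 3.10.9.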

Additional observations from a re-analysis of the deposited data

How the results depend on the processing

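Adding 5 RPPM before the log in place of 1 left fewer calls: 5673 regions opened and 6614 closed. Quantile normalization moved the median log2 fold change of promoters from 0.10 to 0.063, more than the 0.024 SD between libraries. Leaving out 1 library gave 10881 to 11181 opened and 12019 to 13352 closed regions, a promoter median of 0.09 to 0.10, a distal median of -0.08 to -0.01 and 10 to 46 regions called by sex, of which 6 were autosomal without the first KO GCB library and 5 of 43 with a pseudocount of 5 RPPM. Of called regions 47.2% opened, 47.8% with TMM scaling and 48.9% with quantile normalization. EdgeR's likelihood ratio test called 14965 opened and 15677 closed regions and DESeq2 13329 and 14607. Over whole regions, which differ in width (medians of 589 bp for opened and 477 bp for closed), opened and closed regions held the E2A letters in 41.5% and 26.3%, the second E2A letters in 54.9% and 30.9%, PU.1 in 36.4% and 55.7%, ISRE in 28.6% and 20.5%, the octamer in 9.60% and 6.42%, and CTCF in 9.07% and 7.17%. For 159 regions 2860 values were recomputed, of which 2830 kept direction and call, 21 lost the call, 9 gained it and 0 changed direction; most of the changed calls were at the promoters of Meis1, Tcf7 and Bcl2a1d and at Hbb-b1, which lie near a limit. All lists except the cell cycle, erythroid, and NK and dendritic cell markers kept the order of opened and closed counts in all 17 settings. No paired analysis was possible because the labels give mouse identifiers and no number shared between nB and BMPC. 3 mice per group and different sex, tissue and immunization limit every comparison, and regions of 3 reads or fewer give a fold that depends on the pseudocount.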
